A study of Mus musculus with 12 samples.

Results

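The genes described here are 10 regulators of the melanocyte lineage. They were chosen by name from what is known of pigment cells, with earlier results of these data known. All 10 are among the 23022 genes listed in the expression table. They are the transcription factors *Mitf*, *Sox10*, *Pax3*, *Tfap2a*, *Lef1*, *Zeb2* and *Snai2* and the receptors *Kit*, *Ednrb* and *Mc1r*. Their RNA was measured by RNA-seq in 12 libraries of B16-F10, a pigmented melanoma line from C57BL/6 mice, made to express Cas9 and grown from 1 cell clone. NTC cells received non-targeting control guides, *Mbnl* DKO cells received paired guides against *Mbnl1* and *Mbnl2*, and each was either left untreated or given IFNγ for a day, with 3 libraries in each of the 4 conditions. All 4 conditions therefore carry Cas9 and guide RNAs. DKO cells are an edited pool and not a second clone, and the study states that some MBNL protein remained in them.

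Melanocytes arise from the neural crest. In these cells SOX10 and PAX3, with cAMP signaling through CREB and Wnt signaling through LEF1, act on the melanocyte promoter of *Mitf*, and the MITF protein in turn activates pigment and survival genes. KIT, a receptor tyrosine kinase, and EDNRB, a G protein-coupled receptor for endothelins, guide and sustain melanoblasts, while MC1R binds α-MSH and raises cAMP. ZEB2 belongs to the differentiated state of melanocytes, TFAP2A shares many target sites with MITF, and SNAI2 (Slug) is a zinc finger repressor of the crest and of cells that turn mesenchymal.

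Values are TPM, a share of all transcripts that accounts for transcript length, and sequencing depth cannot be read from them. In bulk RNA, fewer cells of a type and less RNA per cell cannot be told apart. The targeted gene *Mbnl1* ranged from 55.6 to 63.9 TPM over the 6 NTC libraries and from 41.1 to 47.5 TPM over the 6 DKO libraries, so RNA of the edited gene was still read. *Mbnl2* differed in the same direction, by −0.20 on the log2 scale without IFNγ and −0.23 with it. All 7 melanocyte markers were detected, and their sum was 16600 to 18600 TPM in NTC against 11100 to 12400 TPM in DKO. Sums stayed at or below 1.87 TPM for 5 immune markers (*Ptprc* and *Cd3e* at 0), 0.342 TPM for 5 keratinocyte markers and 0.914 TPM for 4 endothelial markers. The 5 fibroblast markers summed to 1.63 to 2.70 TPM in NTC against 3.38 to 4.24 TPM in DKO, with *Dcn* and *Lum* at 0, and the 5 Schwann cell markers, some of which melanocytes share, summed to 139 to 180 TPM. The part of this fibroblast difference in any result below was not tested. The listed genes of a library summed to 844185 to 874612 TPM in NTC against 805782 to 827191 TPM in DKO.

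In the GRCm38 build with GENCODE M21, the transcription factor genes lie at chr6:97807052-98021349 (*Mitf*, plus strand), chr15:79154908-79165240 (*Sox10*, minus), chr1:78101267-78197134 (*Pax3*, minus), chr13:40715302-40738376 (*Tfap2a*, minus), chr3:131110471-131224356 (*Lef1*, plus), chr2:44983632-45117395 (*Zeb2*, minus) and chr16:14705852-14709385 (*Snai2*, plus). The receptor genes lie at chr5:75574916-75656722 (*Kit*, plus), chr14:103814625-103844402 (*Ednrb*, minus) and chr8:123407107-123410744 (*Mc1r*, plus). Reads were counted over annotated transcripts without strand, and reads of overlapping genes, such as the antisense *Zeb2os* at *Zeb2* and *Gm20388* on the strand of *Mc1r*, were not separated here.

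Promoter windows from RefSeq (build GRCm38.p6) were found for 7 of the 10 genes. *Sox10*, *Pax3* and *Snai2* had no entry. The 250 bases before a start site are shown for *Mitf*, whose melanocyte start is the most downstream of its 3 windows, for *Mc1r*, a receptor whose signal reaches that *Mitf* promoter, and for *Kit*, the gene with the widest difference between cell types. They are written 5′ to 3′ on the gene's strand, which is the plus strand for each, and the last base shown counts as −1. Capitals mark any match, on either strand, to 7 motifs: the M-box core CATGTG and the E-box CACGTG bound by MITF, the SOX core ACAAAG, the LEF1/TCF core CTTTGA, the CRE core TGACGT bound by CREB, the interferon GAS motif TTCNNNGAA and the E2-box CACCTG bound by ZEB and SNAI proteins.
*Mitf*, melanocyte start, chr6:97991533-97991782: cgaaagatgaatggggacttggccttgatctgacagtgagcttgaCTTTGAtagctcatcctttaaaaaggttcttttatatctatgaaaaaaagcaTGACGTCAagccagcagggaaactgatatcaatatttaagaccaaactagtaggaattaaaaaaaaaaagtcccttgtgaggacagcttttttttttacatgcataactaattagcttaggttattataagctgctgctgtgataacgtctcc
*Mc1r*, chr8:123406832-123407081: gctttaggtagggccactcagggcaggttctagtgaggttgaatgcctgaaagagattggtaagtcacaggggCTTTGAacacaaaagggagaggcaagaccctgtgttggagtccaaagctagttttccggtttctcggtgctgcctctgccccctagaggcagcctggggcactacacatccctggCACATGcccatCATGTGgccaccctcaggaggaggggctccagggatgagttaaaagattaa
*Kit*, chr5:75574737-75574986: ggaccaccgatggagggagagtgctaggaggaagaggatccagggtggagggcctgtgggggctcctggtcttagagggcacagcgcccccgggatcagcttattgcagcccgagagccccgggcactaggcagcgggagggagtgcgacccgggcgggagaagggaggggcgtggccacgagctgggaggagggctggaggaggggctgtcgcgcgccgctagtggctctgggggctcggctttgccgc
The *Mitf* window held the LEF1/TCF core at −205 to −200 and CRE cores on both strands at −153 to −148 and −151 to −146, which overlap. The *Mc1r* window held an M-box core on each strand, at −62 to −57 and −51 to −46, and a LEF1/TCF core at −177 to −172. The *Kit* window held none of the 7 motifs, which says only that these letters are not in this window. Of 32851 RefSeq promoter windows of 300 bases, 14.2% held the M-box core, 7.2% the E-box, 18.7% the SOX core, 16% the LEF1/TCF core, 7.5% the CRE core, 8.3% GAS and 20.2% the E2-box. A match is a description of the sequence, not a measured binding site.

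In untreated NTC cells the lineage genes spanned a wide range of levels. *Sox10* was highest at 320.6 ± 12 TPM (SD, n = 3), followed by *Mitf* (237.0 ± 11.6 TPM), *Mc1r* (138.3 ± 9.18 TPM), *Pax3* (91.9 ± 1.76 TPM), *Zeb2* (63.0 ± 0.58 TPM) and *Tfap2a* (58.7 ± 2.69 TPM). These 6 genes lay between percentile 79.2 and percentile 96.9 of the genes tested. *Kit* (3.59 ± 0.31 TPM), *Snai2* (1.78 ± 0.21 TPM) and *Lef1* (1.09 ± 0.02 TPM) lay at or below percentile 15.6, and *Ednrb* was listed at 0 in all 3 libraries. No neighbors in this order overlapped between libraries. The order changed at both ends. With IFNγ, the NTC libraries of *Mitf* (271, 303 and 281 TPM) and *Sox10* (277, 265 and 265 TPM) overlapped, with *Mitf* the higher on average. In DKO cells *Sox10* stayed first, and *Kit* moved below *Snai2* and *Lef1*, both without IFNγ and with it. The values of all 10 genes are shown library by library in the plot of TPM in the 4 conditions.

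**Figure D1:**
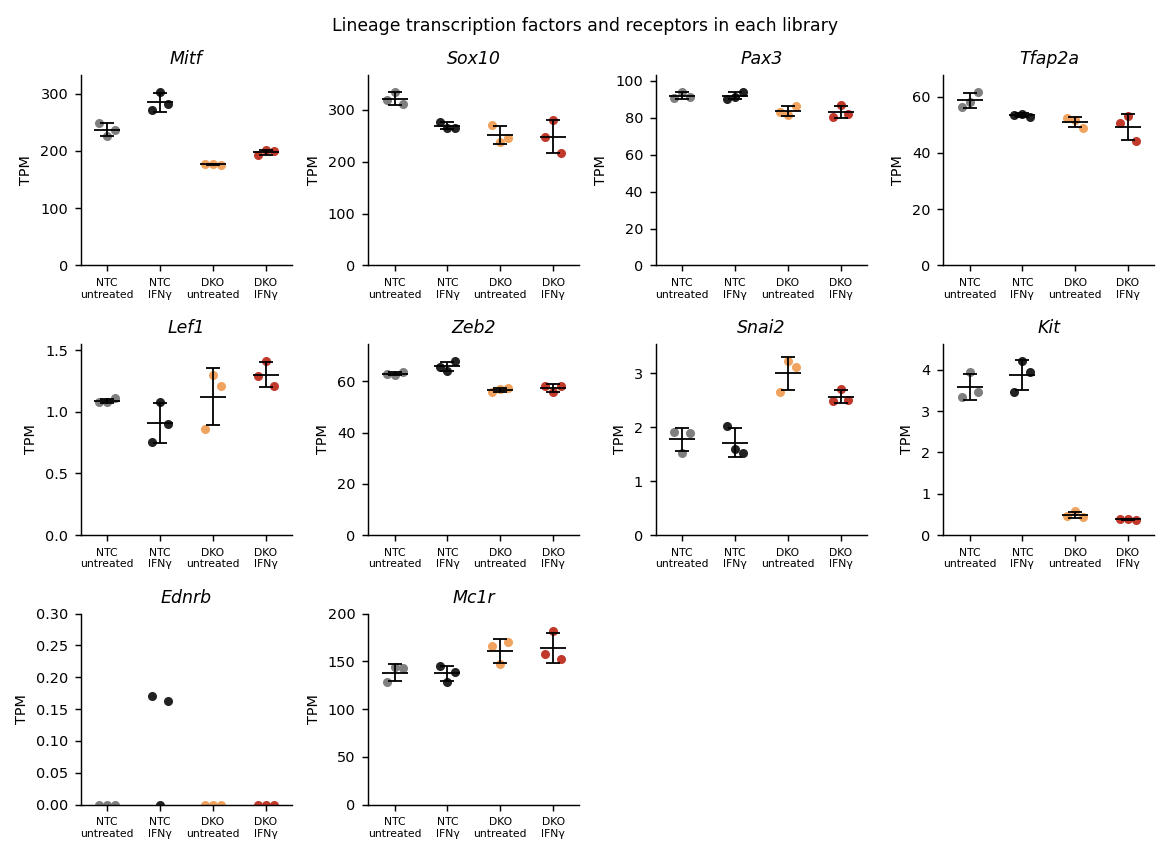
TPM of each of the 10 lineage genes (y axis, starting at 0) in the 4 conditions (x axis), with a point for each library and, except for *Ednrb*, a bar at the mean with whiskers of 1 SD (n = 3). *Kit* is at 3.35 to 4.20 TPM in the NTC libraries and 0.352 to 0.574 TPM in the DKO libraries, while *Mitf* is lower and *Snai2* and *Mc1r* are higher in every DKO library than in every NTC library of the same treatment.

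The comparison of DKO with NTC cells asked how the lineage program differed after *Mbnl* editing. Without IFNγ, 8 of the 9 tested lineage genes differed, with 6 lower in DKO (*Kit*, *Mitf*, *Sox10*, *Tfap2a*, *Zeb2* and *Pax3*) and 2 higher (*Snai2* and *Mc1r*). The differences came from limma on log2(TPM + 1), called at a Benjamini-Hochberg adjusted p under 0.05 over 11663 tested genes. Of all tested genes 36.4% were called, 17% higher and 19.4% lower. The libraries of DKO and NTC did not overlap for 8 of the 9 tested lineage genes, against 51.6% of all tested genes. The median over the 9 genes was −0.15, and over all tested genes it was −0.01. With IFNγ, 6 of the 9 were called, 4 lower (*Kit*, *Mitf*, *Zeb2* and *Pax3*) and 2 higher (*Snai2* and *Mc1r*), beside 43.3% of all tested genes (19.5% higher and 23.9% lower), and the medians were −0.13 and −0.01. The libraries of 7 of the 9 did not overlap there, against 49.9% of all tested genes. These counts and medians include *Kit*, which passed the filter only through NTC and so could enter only as lower in DKO. The values of the 2 comparisons are given side by side. Scaling each library to the same total moved the share of higher genes among all calls from 46.7% to 60.6% without IFNγ and from 44.9% to 65.2% with it, and left 5 lineage genes called without IFNγ (*Pax3*, *Tfap2a* and *Zeb2* were lost). Without replicate 3 of untreated NTC the number was also 5, with *Pax3*, *Tfap2a* and *Mc1r* lost.

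**Figure D2:**
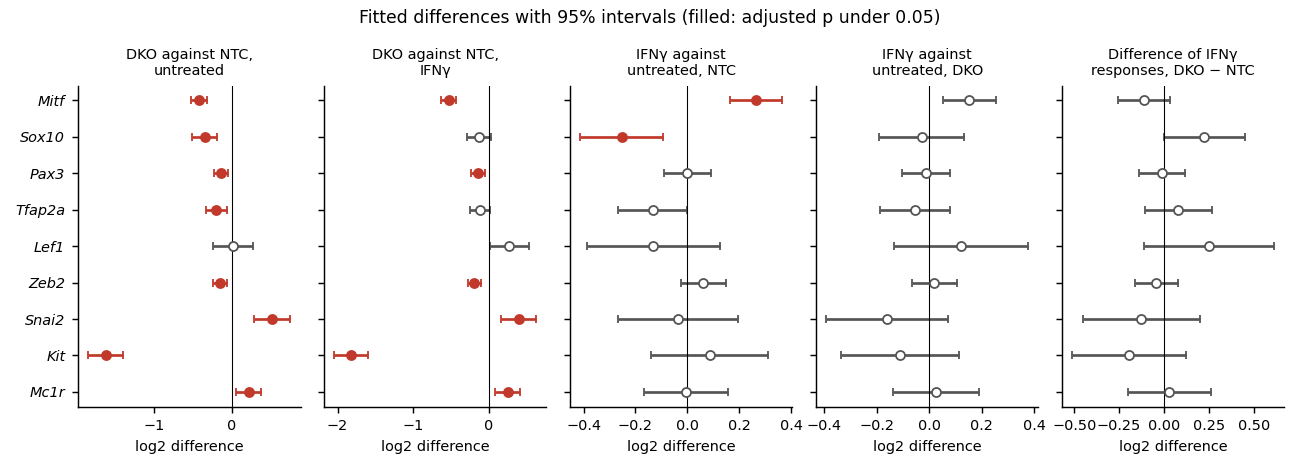
Fitted differences on the log2(TPM + 1) scale (x axis, with a separate range in each panel) with 95% intervals for the 9 tested lineage genes (y axis) in the 5 comparisons, filled where the limma adjusted p is under 0.05. In the 2 panels of DKO against NTC *Kit* lies farthest from 0, at −1.63 and −1.82, and no interval in the panel of the difference between responses is filled.

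*Kit* was the lineage gene that differed most. Untreated NTC libraries held 3.35, 3.94 and 3.47 TPM and untreated DKO libraries 0.458, 0.574 and 0.425 TPM. With IFNγ the values were 3.47, 4.20 and 3.95 TPM in NTC against 0.397, 0.378 and 0.352 TPM in DKO. Every DKO library was far below every NTC library, and the mean in DKO was 7.39-fold lower without IFNγ and 10.3-fold lower with it. The fitted difference was −1.63 without IFNγ (SE 0.10, 95% interval −1.85 to −1.40, limma adjusted p = 1.29e-07). After IFNγ it was −1.82 (SE 0.10, adjusted p = 4.52e-08). Among the 11663 tested genes these were the 16th and the 8th lowest values. *Kit* passed the filter of 1 TPM in 3 libraries only through NTC, so it could enter the test only with a higher level there. Its DKO level was under the pseudocount of 1, which compresses the log2 difference, and with a pseudocount of 0.1 the differences were −2.66 and −3.06.

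*Mitf*, the central regulator of the lineage, was lower in DKO to a smaller extent. It measured 249, 226 and 236 TPM in untreated NTC libraries and 178, 177 and 176 TPM in untreated DKO libraries. With IFNγ it measured 271, 303 and 281 TPM in NTC against 192, 201 and 199 TPM in DKO. All DKO libraries, treated or not, lay below the lowest NTC library. DKO held 74.7% of the NTC level without IFNγ (log2 difference −0.42, SE 0.05, adjusted p = 1.71e-05). With IFNγ it held 69.2% (−0.53, adjusted p = 2.14e-06).

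*Sox10*, which acts upstream of *Mitf*, measured 318, 334 and 310 TPM in untreated NTC and 271, 238 and 246 TPM in untreated DKO. The groups did not overlap, and the log2 difference was −0.35 (SE 0.07, adjusted p = 0.00242). With IFNγ the NTC values were 277, 265 and 265 TPM and the DKO values 248, 279 and 216 TPM. These groups overlapped, and the difference of −0.13 (95% interval −0.29 to 0.04, adjusted p = 0.192) did not pass, although it did without replicate 2 of IFNγ-treated DKO (−0.21, adjusted p = 0.0196) and with a trend on GC content and gene length removed (−0.35, adjusted p = 2.51e-05).

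*Pax3*, *Tfap2a* and *Zeb2* were each lower in untreated DKO by under 0.20 on the log2 scale. *Zeb2* was 62.8, 62.6 and 63.7 TPM in untreated NTC and 55.7, 57.0 and 57.3 TPM in untreated DKO (−0.15, SE 0.04, adjusted p = 0.00913). With IFNγ it was 65.6, 64.2 and 67.8 TPM in NTC against 58.3, 55.7 and 58.3 TPM in DKO (−0.19, adjusted p = 0.00158). *Zeb2* thus held a narrow and separate range in each cell type, and its call without IFNγ was lost when libraries were scaled to the same total (−0.10, adjusted p = 0.054). *Pax3*, a paired-box factor, was 90.6, 94.0 and 91.3 TPM in untreated NTC and 83.3, 81.4 and 86.5 TPM in untreated DKO (−0.13, adjusted p = 0.0241), and with IFNγ 90.4 to 93.9 TPM in NTC against 80.2 to 86.8 TPM in DKO (−0.15, adjusted p = 0.013). *Tfap2a* was 56.5, 58.0 and 61.7 TPM in untreated NTC and 52.4, 51.7 and 49.0 TPM in untreated DKO (−0.20, adjusted p = 0.0222). With IFNγ its groups of libraries overlapped, at 52.6 to 54.0 TPM in NTC against 44.2 to 53.0 TPM in DKO (−0.12, adjusted p = 0.135). The calls of *Pax3* and *Tfap2a* depended on single libraries. The *Pax3* call without IFNγ was lost without replicate 2 (adjusted p = 0.0828) or 3 (0.0535) of untreated NTC or replicate 1 (0.0647) or 2 (0.095) of untreated DKO, the call with IFNγ was lost without replicate 1 of treated DKO (0.0605), and both were lost at the same total (0.17 and 0.303). The *Tfap2a* call without IFNγ was lost without replicate 3 of untreated NTC (0.0943) or of untreated DKO (0.0876) and at the same total (0.0961), and *Tfap2a* gained a call with IFNγ without replicate 2 of treated DKO (−0.17, adjusted p = 0.0411).

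*Snai2* was higher in DKO at both treatments. It measured 1.91, 1.53 and 1.89 TPM in untreated NTC and 2.65, 3.22 and 3.12 TPM in untreated DKO, a mean 1.69-fold higher in DKO (log2 difference 0.53, SE 0.11, adjusted p = 0.00186). With IFNγ it measured 2.02, 1.60 and 1.52 TPM in NTC against 2.49, 2.70 and 2.51 TPM in DKO, 1.5-fold higher (0.40, adjusted p = 0.00903). Every DKO library lay above every NTC library at both treatments, at a level among the lowest of the genes tested.

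*Mc1r* was also higher in DKO, by a smaller ratio at a much higher level. Its values were 128, 144 and 143 TPM in untreated NTC and 166, 147 and 170 TPM in untreated DKO (0.22, SE 0.08, 95% interval 0.06 to 0.38, adjusted p = 0.0373). With IFNγ they were 145, 129 and 139 TPM in NTC against 158, 182 and 153 TPM in DKO (0.25, adjusted p = 0.0172). The groups stood apart by a few TPM at both treatments. The call without IFNγ was lost without replicate 1 (adjusted p = 0.153) or 3 (0.0507) of untreated NTC, without replicate 1 (0.11) or 3 (0.136) of untreated DKO, with the replicate number as a block (0.0586), and with no filter or no variance trend (0.065 in each). The call with IFNγ was lost without replicate 2 of treated NTC (0.0755) or of treated DKO (0.0792).

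*Lef1*, the nuclear partner of β-catenin, was near 1 TPM throughout. It was 1.08, 1.08 and 1.11 TPM in untreated NTC and 0.862, 1.30 and 1.21 TPM in untreated DKO, which overlapped (0.02, 95% interval −0.24 to 0.27, adjusted p = 0.929). With IFNγ the values were 0.756, 1.08 and 0.903 TPM in NTC against 1.29, 1.41 and 1.21 TPM in DKO. All treated DKO libraries were above all treated NTC libraries, at an adjusted p of 0.0837 (difference 0.27), which was under the threshold with no filter (0.0495), with no variance trend (0.0222), at the same total (0.0478) and with the GC and length trend removed (0.035). *Ednrb* was listed at 0.17 and 0.162 TPM in replicates 1 and 3 of IFNγ-treated NTC and at 0 in the other 10 libraries, so it was under the filter and was not tested.

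The relations between these genes within a library also differed. The pairs described here were chosen after their values were seen, and with 3 libraries against 3 the smallest 2-sided p an exact permutation test can give is 0.1. The *Mc1r* to *Mitf* ratio of TPM was 0.513, 0.638 and 0.606 in untreated NTC and 0.931, 0.832 and 0.967 in untreated DKO. With IFNγ it was 0.537, 0.424 and 0.496 in NTC and 0.822, 0.908 and 0.767 in DKO. All DKO libraries stood above all NTC libraries (exact permutation p = 0.1 at each treatment). The *Kit* to *Mitf* ratio was 0.0135, 0.0175 and 0.0147 in untreated NTC and 0.00257, 0.00324 and 0.00242 in untreated DKO, so *Kit* was lower in DKO also relative to *Mitf*.

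**Figure D3:**
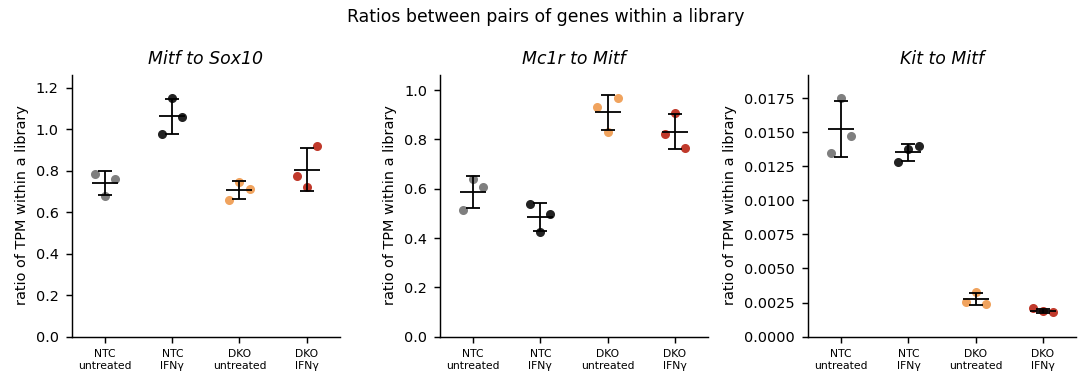
Ratio of TPM of *Mitf* to *Sox10*, *Mc1r* to *Mitf* and *Kit* to *Mitf* within a library (y axes, starting at 0) in the 4 conditions (x axis), with points for libraries, a bar at the mean and whiskers of 1 SD (n = 3). IFNγ-treated NTC libraries have the highest *Mitf* to *Sox10* ratios (0.978 to 1.15), and DKO libraries have the higher *Mc1r* to *Mitf* ratios.

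IFNγ is a cytokine of activated T and NK cells, and its effect on the lineage genes was compared with untreated cells of the same type. In NTC cells 2 of the 9 tested genes were called, beside 12.1% of all tested genes (7.31% higher and 4.78% lower), and the libraries of 4 of the 9 did not overlap, against 36.6% of all tested genes. *Mitf* rose, with 249, 226 and 236 TPM before and 271, 303 and 281 TPM after treatment (log2 difference 0.27, SE 0.05, 95% interval 0.16 to 0.37, limma adjusted p = 0.00579). Its treated libraries were all above its untreated libraries, with a mean 1.2-fold higher, and the call was lost with the GC and length trend removed (0.16, adjusted p = 0.0624). *Sox10* fell, with 318, 334 and 310 TPM before and 277, 265 and 265 TPM after treatment (−0.25, SE 0.07, adjusted p = 0.0439), again with no overlap. The *Sox10* call was close to the threshold. It was lost with no filter (adjusted p = 0.0776), with no variance trend (0.0787), when any of 9 libraries was left out (all 6 NTC libraries, replicates 2 and 3 of untreated DKO and replicate 1 of treated DKO, adjusted p up to 0.138), and with the GC and length trend removed, where the difference was 0.01 (adjusted p = 0.903). The *Mitf* to *Sox10* ratio was 0.784, 0.677 and 0.761 in untreated NTC and 0.978, 1.15 and 1.06 after IFNγ, with all treated libraries higher (exact permutation p = 0.1). The same total scaling moved the share of higher genes among all calls of this comparison from 60.5% to 45.1%.

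The other 7 tested genes did not pass in NTC. *Tfap2a* was lower in each treated library (53.6, 54.0 and 52.6 TPM against 56.5, 58.0 and 61.7 TPM, −0.13, adjusted p = 0.154). *Zeb2* was higher in each treated library (65.6, 64.2 and 67.8 TPM against 62.8, 62.6 and 63.7 TPM, 0.06, adjusted p = 0.304). The receptors differed little, with *Kit* at 0.09 (adjusted p = 0.608) and *Mc1r* at −0.01 (adjusted p = 0.972).

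In DKO cells none of the 9 lineage genes was called after IFNγ by limma, with 1 at an unadjusted p under 0.05, and 0.78% of all tested genes were called (0.677% higher and 0.103% lower). The libraries of 2 of the 9 did not overlap, against 14.7% of all tested genes. The gene at an unadjusted p under 0.05 was *Mitf*, at 178, 177 and 176 TPM without and 192, 201 and 199 TPM with IFNγ (0.15, SE 0.05, adjusted p = 0.254). All 3 treated libraries were higher. *Kit* was lower in each treated library (−0.11, adjusted p = 0.797), and *Sox10* overlapped between treatments (−0.03, adjusted p = 0.944). The *Mitf* to *Sox10* ratio was 0.659, 0.744 and 0.714 without IFNγ and 0.774, 0.720 and 0.920 with it, which overlapped (exact permutation p = 0.2).

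The difference between the responses of the 2 cell types was tested directly. None of the 9 lineage genes passed (0 at an unadjusted p under 0.05), beside 0.0343% of all tested genes. The difference of responses was −0.11 for *Mitf* (95% interval −0.25 to 0.03, adjusted p = 0.514), 0.22 for *Sox10* (95% interval −0.002 to 0.45, adjusted p = 0.436) and −0.20 for *Kit* (adjusted p = 0.595). A p above the threshold does not show that the responses were alike, and the *Sox10* interval reaches the size of its fall in NTC.

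Genes known to lie downstream of these regulators were read from lists. Of 14 pigment genes, 13 were lower in DKO without IFNγ (median −0.53 on the log2 scale) and 13 with it (median −0.58). Of all tested genes 19.4% were called lower without IFNγ and 23.9% with it, with a median over all of −0.01 at each treatment. The largest falls without IFNγ were those of *Trpm1*, a melanocyte ion channel (−1.01), *Oca2*, a melanosome membrane protein (−0.85), and *Slc24a5*, a melanosome exchanger (−0.80). The exceptions, named after their values were seen, were *Gpr143* without IFNγ (−0.15, adjusted p = 0.0517) and *Gpnmb* with it (−0.05, adjusted p = 0.229). IFNγ was followed by a higher level of 7 of the 14 in NTC (median 0.15), beside 7.31% of all tested genes (median over all 0.02). This count depended on single libraries and fell to 2 without replicate 2 of untreated NTC or of treated NTC, to 1 without replicate 3 of untreated NTC and to 0 without replicate 3 of treated NTC. It was 5 with no filter, 4 with no variance trend and 3 with the GC and length trend removed, where the difference was 0.06 for *Tyr*, tyrosinase, against 0.18 as reported, and 0.03 for *Mlana* against 0.13. In DKO 2 of the 14 were higher after IFNγ, *Trpm1* (0.38, adjusted p = 0.00106) and *Pmel*, the melanosome fibril protein (0.20, adjusted p = 0.038), of which *Pmel* lost its call when any of 8 libraries was left out (replicates 2 and 3 of untreated NTC, 1 of treated NTC, all 3 of untreated DKO, and 1 and 2 of treated DKO, with adjusted p from 0.0594 to 0.179), and the count was 4 without replicate 1 of untreated NTC. Of all tested genes 0.677% were called higher after IFNγ in DKO. No pigment gene passed in the difference of responses (1 at an unadjusted p under 0.05), beside 0.0343% of all tested genes.

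Of 12 MITF targets outside pigmentation 9 were tested, and without IFNγ 2 were higher in DKO and 2 lower, beside 36.4% of all tested genes called. *Cdkn1a*, which encodes the cell cycle inhibitor p21, was higher (86 TPM in NTC, 230 TPM in DKO, 1.41, adjusted p = 6.47e-07), and *Snai2*, described above, is also on this list. *Met*, a receptor tyrosine kinase, was lower (−0.72), as was *Cdk2*, a cell cycle kinase (−0.45). With IFNγ 3 were higher and 3 lower, beside 43.3% of all tested genes, with *Cdkn1a* at 1.72, *Met* at −0.76 and *Cdk2* at −0.36. After IFNγ in NTC 2 of the 9 were higher, *Met* (0.30) and *Hif1a* (0.22), beside 7.31% of all tested genes. In the same cells 2 were lower, *Cdkn1a* (−0.43) and *Tbx2* (−0.42), beside 4.78%. These 2 calls held in 14 and 11 of 20 alternative runs. In DKO only *Met* was called after IFNγ (0.27), beside 0.677% of all tested genes called higher. Of 12 genes of the low-MITF melanoma state 6 were tested, and *Axl*, a receptor tyrosine kinase, was higher in DKO without IFNγ (0.70) and with it (0.70). Without IFNγ 1 of the 6 was called and 5 were not, beside 36.4% of all tested genes called. With IFNγ 4 of the 6 were called higher and none lower, beside 43.3% of all tested genes called (19.5% higher). These included *Cyr61* (0.46) and *Jun* (0.37, adjusted p = 0.0484), whose call held in 9 of 20 alternative runs. The call of *Tead4*, the smallest difference of the 4, was lost with the GC and length trend removed (0.17, adjusted p = 0.0937). After IFNγ in NTC *Cyr61* was the only 1 of the 6 called, and it was lower (−0.45, limma adjusted p = 0.00342). Of all tested genes 4.78% were called lower there. None of the 6 was called after IFNγ in DKO.

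The ligand genes of the 3 receptors were at low levels. Of 10 genes for ligands, their processing enzymes and an antagonist, 9 were listed and 4 were tested. *Edn1*, *Edn2* and *Edn3*, the endothelins that bind EDNRB, were at 0 in every library. *Kitl*, the KIT ligand, had group means between 0.934 and 1.32 TPM and was not called. *Pomc*, the precursor of the MC1R ligand α-MSH, had group means between 2.24 and 3.09 TPM and was not called, and *Ece2*, an endothelin-converting enzyme, was the only one called, at 0.35 without IFNγ and 0.37 with it. Of 9 paralogs of the receptors 2 were tested, and *Flt3*, a kinase of the KIT family, was higher in untreated DKO (0.67, adjusted p = 0.00526). Neither of the 2 was called with IFNγ. A gene can pass the filter through 1 cell type alone, as *Kit* did, and this was not examined for *Flt3*. All 19 genes that carry receptor signals to the *Mitf* gene and protein were tested. Without IFNγ 7 were lower in DKO and 2 higher, and these counts were the same with it, so 9 of 19 were called at each treatment beside 36.4% and 43.3% of all tested genes. The lower genes without IFNγ included *Braf*, a kinase of the MAPK pathway (−0.49), *Gnas*, the G protein subunit through which MC1R raises cAMP (−0.39), and *Gsk3b*, a kinase that phosphorylates MITF (−0.34). The higher were *Rps6ka1*, an RSK kinase (0.72), and *Gna11*, a G protein subunit (0.22).

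Relatives of the transcription factors were compared on the same scale. In DKO against NTC without IFNγ 36.4% of all tested genes were called (17% higher and 19.4% lower). With IFNγ the share was 43.3% (19.5% higher and 23.9% lower). The counts of calls on the lists below were not tested against these shares. *Tfe3* and *Tfeb*, the tested MiT paralogs of *Mitf*, were called in no comparison. Of 12 Sox, Pax and Tfap2 paralogs 4 were tested, and *Sox9*, a crest factor, was lower in DKO (4.08 TPM in NTC against 1.43 TPM in DKO without IFNγ, −1.06, adjusted p = 1.75e-06; −0.80 with IFNγ). *Sox5*, a relative of *Sox10*, was higher in DKO without IFNγ (0.28, adjusted p = 0.0278) and after treatment (0.35, adjusted p = 0.00863), and *Sox6* was lower with IFNγ (−0.24, adjusted p = 0.0129). The *Sox5* call without IFNγ was lost without replicate 2 (adjusted p = 0.118) or 3 (0.0591) of untreated NTC or replicate 2 (0.0892) or 3 (0.0577) of untreated DKO, and the *Sox6* call without replicate 3 of treated NTC (0.0549) and at the same total (0.0872). Of 9 Lef1 paralogs and Wnt feedback genes 6 were tested. *Tcf7l1*, a LEF1 relative, was higher in DKO (0.65 without IFNγ and 0.89 with it) and *Axin2*, a feedback target of β-catenin, was lower (−0.70 and −0.46), and with IFNγ 4 were higher and 1 lower. After IFNγ in NTC *Tcf7l1* was the only 1 of the 6 called, and it was lower (−0.43, limma adjusted p = 0.00997). Of all tested genes 4.78% were called lower there. Of 10 genes of the Zeb, Snail, Twist and cadherin list 4 were tested, and *Fn1*, fibronectin (0.42 and 0.75), and *Cdh2*, N-cadherin (0.27 and 0.27), were higher. Of 16 other crest regulators 8 were tested, and 3 were called higher and 1 lower without IFNγ, and as many with it, though not all were the same genes. *Erbb3*, a neuregulin receptor (0.82 and 0.73), and *Nr2f2*, a nuclear receptor (0.56 and 0.58), were higher and *Id2*, an inhibitor of helix-loop-helix factors (−0.20 and −0.19), was lower at both treatments. The third gene called higher was *Ets1* without IFNγ (0.11, adjusted p = 0.0369) and *Id3* with it (0.67, adjusted p = 0.0181). The *Ets1* call was lost when replicate 1 or 3 of untreated NTC or any replicate of untreated DKO was left out (adjusted p from 0.0723 to 0.113), and the *Id3* call without replicate 1 of treated DKO (0.0717). After IFNγ in NTC 2 of these 8 were called, both lower, beside 4.78% of all tested genes. They were *Id3* (−0.71, limma adjusted p = 0.042) and *Id2* (−0.12, adjusted p = 0.0437), and each call held in 9 of 20 alternative runs. The bar chart of calls per list shows these counts for 4 comparisons.

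**Figure D4:**
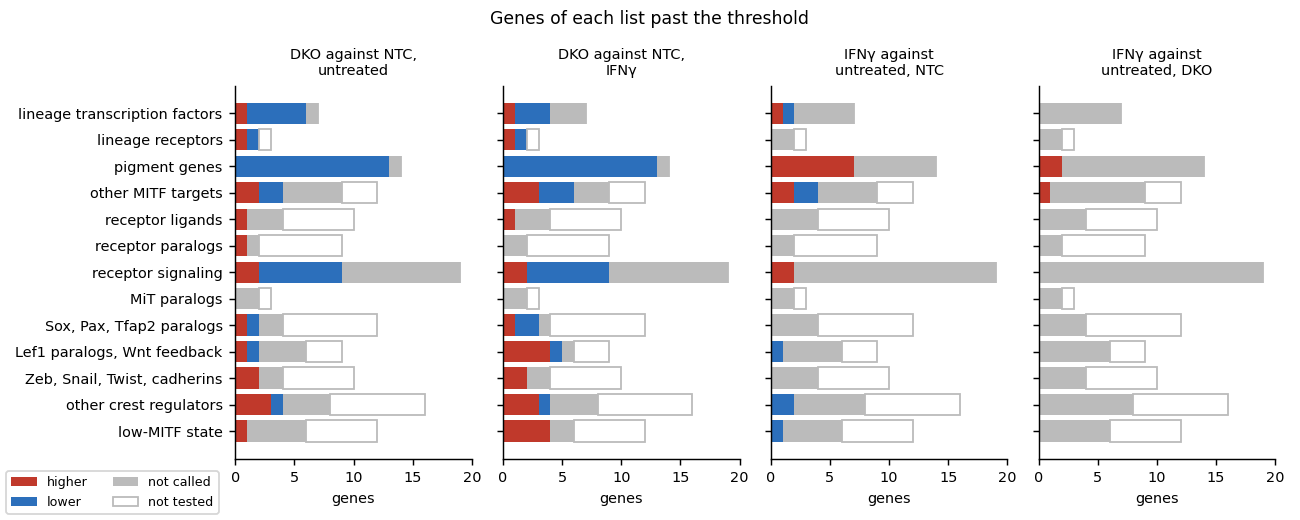
Number of genes (x axis) of each list (y axis) that were higher, lower, not called or not tested in 4 comparisons, by limma adjusted p under 0.05. In both DKO against NTC panels the pigment genes are lower for 13 of 14, and in the IFNγ panel of NTC 7 of the 14 are higher. Of all tested genes 19.4% are lower without IFNγ and 23.9% with it, and 7.31% are higher after IFNγ in NTC.

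The 3 genes whose log2(TPM + 1) followed each lineage gene most closely were found by Pearson's r over the 12 libraries, given as a description, since the libraries share 4 conditions. For *Kit* they were *Atf4*, a stress-response transcription factor (r = 0.9949), *Psat1*, a serine synthesis enzyme (r = 0.9948), and *Xpot*, the tRNA exportin (r = 0.9919). For *Mitf* they were *Aph1c*, a γ-secretase subunit (r = 0.9902), *Brca1*, a DNA repair gene (r = 0.9899), and *Higd1a* (r = 0.9855). For *Sox10* the closest was *Stub1*, a ubiquitin ligase (r = 0.9852), for *Zeb2* it was *Bhlhe41*, a clock repressor (r = 0.9848), for *Snai2* it was *Cspg4*, a melanoma proteoglycan (r = 0.9672), and for *Mc1r* it was *Stat5a* (r = 0.9396).

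The neighborhood of *Kit* on chromosome 5 was examined after its values were seen. Of 15 listed genes within 1 Mb on either side 8 were tested. Without IFNγ 3 of the 8 were called, beside 36.4% of all tested genes, and these were *Clock* (−0.21, adjusted p = 0.0141), *Cep135* (−0.29, adjusted p = 0.00352) and *Tmem165*, which was higher (0.28, adjusted p = 0.00557). With IFNγ 3 of the 8 were called, beside 43.3%, and these were *Clock* (−0.22, adjusted p = 0.00783), *Cep135* (−0.50, adjusted p = 4.98e-05) and *Chic2* (−0.30, adjusted p = 0.00944). The nearest tested gene after *Kit* on the chromosome was *Srd5a3*, 484 kb away, at −0.08 in untreated cells (adjusted p = 0.414) and −0.15 after IFNγ (adjusted p = 0.109). The nearest before it was *Chic2*, 530 kb away, at −0.10 without IFNγ (adjusted p = 0.35). Closer to *Kit*, *Kdr* (276 kb, group means of 0 TPM) and *Pdgfra* (377 kb, group means from 0.6 to 0.786 TPM) were listed but not tested. The plot of differences along the locus shows *Kit* below all 8 at both treatments. *Kit* was picked for its large difference, so this order is a description and not a test.

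**Figure D5:**
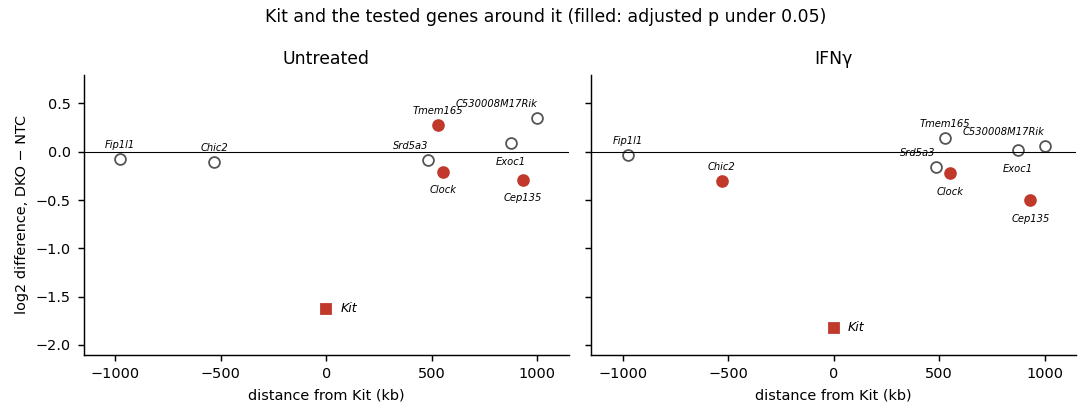
Log2 difference of DKO against NTC (y axis) of *Kit* (square) and the 8 tested genes around it (circles), by distance from *Kit* in kb (x axis), without and with IFNγ, filled where the limma adjusted p is under 0.05. The 8 neighbors lie between −0.29 and 0.35 without IFNγ and between −0.50 and 0.14 with it, while *Kit* lies at −1.63 and −1.82.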

How the data were processed

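RNA-seq libraries were poly(A)-selected and unstranded, 3 per condition, grouped by the labels. The authors ran RSEM 1.2.4, modified to call Bowtie, and TopHat 20.8b on mouse build mm10 (GRCm38), with a merged Ensembl, UCSC and MISO annotation. The deposited table is named counts but its values, as the authors made them, are TPM. The study's methods state an intended number of reads per sample, but the depth each library reached is unknown. Whether libraries were rescaled against each other is not given in the sources used here. Without strand, reads of overlapping antisense genes cannot be separated. Separate cultures are not stated, so p-values measure the spread between libraries, which may be technical.

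Of 23022 genes, the 11663 that reached 1 TPM in 3 or more libraries were fitted as log2(TPM + 1) with limma 3.58.1 in R 4.3.3, with a mean for each of the 4 conditions and a variance trend, on all 12 libraries. There were 5 comparisons: the IFNγ response of NTC, that of DKO, their difference, and DKO against NTC at each treatment, with a threshold of 0.05 on Benjamini-Hochberg adjusted p. A log2 difference on this scale understates the change of low genes. Replicate numbers were checked as pairs and not used. The code was tested on simulated data. Exact permutation tests were also run in R. Python 3.11.15, pandas 2.3.3 and matplotlib 3.10.9 were used to prepare tables, search motifs and draw plots. Gene positions came from GENCODE M21 and promoters from RefSeq.

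The 10 genes and the lists were chosen with earlier results of these data known. Named genes are the 10, and from each list some of those with the largest called differences, up to 3 per direction and comparison, with exceptions stated. Not every such gene is named for every list and comparison. Alternatives were another pseudocount, no filter, a replicate block, no variance trend, each library left out, only the libraries compared, 2 scalings and removal of a GC and length trend.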

Additional observations from a re-analysis of the deposited data

How the results depend on the processing

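The calls of *Kit*, *Mitf* and *Snai2* in DKO against NTC, at both treatments, and of *Sox10* in untreated cells held in every alternative run. After IFNγ in NTC, 1 lineage gene was called with no filter on low values (897 of all genes) and 1 with no variance trend (737), and 0 were called with the GC and length trend removed (519), against 2 and 1411 as reported. Leaving out 1 library gave 1 to 2 lineage genes and 317 to 2023 of all genes there. In untreated DKO against NTC, 5 lineage genes were called at the same total against 8 as reported, and 5 to 8 with 1 library left out. In the difference of responses, 10 of all genes were called with no filter against 4 as reported, and 0 to 7 with 1 library left out. With the GC and length trend removed the sign turned for *Sox10* in NTC (0.013) and DKO (0.030), *Zeb2* in NTC (−0.057), DKO (−0.016) and the difference of responses (0.040), and *Mc1r* in NTC (0.046) and the difference (−0.023), and at the same total for *Pax3* in the difference (0.023). With 1 library left out, differences near 0 crossed it. After IFNγ in NTC these were *Snai2* (−0.11 to 0.016), *Pax3* (−0.015 to 0.015) and *Mc1r* (−0.061 to 0.043). After IFNγ in DKO these were *Sox10* (−0.12 to 0.065), *Mc1r* (−0.052 to 0.076), *Pax3* (−0.045 to 0.011) and *Tfap2a* (−0.11 to 0.020). In the difference these were *Mc1r* (−0.046 to 0.086) and *Pax3* (−0.045 to 0.012), and in untreated DKO against NTC *Lef1* (−0.043 to 0.11). The cause was not tested. With the libraries of each comparison alone, *Kit* after IFNγ in DKO was below the filter and gave no value. The depth each library reached is unknown, so the precision of the low genes *Kit*, *Snai2* and *Lef1* rests on 3 libraries a condition.

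Replicate numbers did not pair the libraries: of 18 pairs with the same number 4 correlated above 0.1 (r from −0.303 to 0.291), and 3 of 12 libraries correlated best with their own number. With the replicate number as a block, 7 lineage genes were called in untreated DKO against NTC, 6 with IFNγ, 2 after IFNγ in NTC and 0 in the other comparisons, and 2 of all genes in the difference of responses.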
